A study of Mus musculus with 31 samples.

Results

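The effect of β-glucan on long-term hematopoietic stem cells (HSC) was compared between day 28 and day 7 after injection. β-glucan is a fungal cell wall polysaccharide that binds the receptor dectin-1 on myeloid cells. All mice were wild-type C57BL/6, 10 weeks old, and received either PBS or 1 mg of β-glucan in PBS into the peritoneum. HSC were sorted from bone marrow at day 7 (4 PBS and 3 β-glucan libraries) or at day 28 (4 PBS and 4 β-glucan libraries), so 15 of the 31 libraries of the series entered the comparison. Groups were taken from the sample titles and no measured value was used. Multipotent progenitors (MPP) sorted at day 28 (4 PBS and 4 β-glucan libraries) and HSC from mice that also received 150 mg/kg of 5-fluorouracil (5-FU, a drug that kills dividing cells) at day 7 and were sampled 14 days later (again 4 and 4) served as further readouts. The labels do not say whether replicates came from separate mice or from pools, so p-values measure the spread between libraries, which may be technical.

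HSC give rise to all blood lineages and seldom divide under resting conditions. Infection and microbial products can push them towards the production of neutrophils and monocytes, at the cost of red cell and lymphoid output. Interferons act on HSC through STAT and IRF transcription factors, which switch on a shared set of antiviral and antigen presentation genes. The effect of β-glucan on blood stem cells has been studied as a form of trained immunity, in which a first stimulus leaves a lasting change in the innate system.

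The day 7 and day 28 libraries were deposited in separate count tables. Day and table therefore cannot be told apart, levels were never compared between days, and what was compared is the β-glucan effect within each table. Libraries held 19331663 to 26009040 counts at day 7 and 29751430 to 39485556 at day 28. None of the tables prints the day or the 5-FU treatment, so each was matched to the titles by its columns. The first was taken as day 7 because it alone holds 3 β-glucan and 4 PBS columns, the second as day 28 because it also holds the MPP columns, and the third as 5-FU because it remained. The column initials P and G were read as PBS and β-glucan.

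Markers of LT-HSC were detected in every library, among them Slamf1 (4.37 to 12.3 CPM, counts scaled to library size and not to gene length), Procr (5.60 to 52.9 CPM) and Mecom (7.53 to 44.7 CPM). Transcripts of mature cells were present too in every library, with the globin gene Hbb-bs at 6288 to 31000 CPM and the neutrophil granule gene Camp at 2132 to 5841 CPM. These markers belong to cells that an LT-HSC gate should leave out, and their part in the results below was not tested. In bulk libraries, fewer cells of a type and less RNA per cell cannot be told apart. PBS library 4 of day 7 and PBS library 2 of day 28 lay farthest from the other libraries of their groups.

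Of 17977 genes tested, 866 (4.82%) had a β-glucan effect that differed between day 28 and day 7 (edgeR quasi-likelihood test of the difference, Benjamini-Hochberg adjusted p under 0.05). The effect was higher at day 28 for 403 genes (2.24%) and lower for 463 (2.58%). The last gene inside the threshold was Ankrd11, with a difference of 0.59 ± 0.17 (SE) on the log2 scale and an adjusted p of 0.0499, and the first outside was C5ar1, at -0.63 ± 0.18 and 0.05. Without β-glucan library 2 of day 7, 445 genes passed (249 higher, 196 lower). Without β-glucan library 3 of day 7, 520 passed (247 and 273), and without β-glucan library 1 of day 28, 537 (272 and 265). Without the 2 libraries that lay farthest out, 887 passed.

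The 866 genes were sorted by their effects on the single days, with an unadjusted p under 0.05 as the mark of an effect. A gene was called transient if it had an effect at day 7 only, late if at day 28 only, and reversed if it had effects of opposite sign on both days. This gave 534 transient, 63 late and 238 reversed genes, and 31 genes with effects in the same direction on both days but of different size. The transient genes had a higher effect at day 28 in 284 cases (1.58% of genes tested) and a lower one in 250 (1.39%), and the late genes in 12 (0.0668%) and 51 (0.284%). The reversed genes had a higher effect at day 28, below PBS at day 7 and above it later, in 80 cases (0.445%), and a lower one in 158 (0.879%). Of the 31 in the same direction, 27 had a higher effect (0.150%) and 4 a lower one (0.0223%). As the classes were made from the same 2 effects as the test, their sizes are a description. The day 7 effect passed the adjusted threshold for 521 of the 534 transient genes, and the day 28 effect for 15 of the 63 late genes. On both days at once it did so for 5 of the 238 reversed genes, which were Oasl2, H2-T22, Mcpt8 and the antibody segments Igkv4-91 and Igkv17-127. These 5 were picked out after their values were seen. The antibody segments were near the floor at day 7, with PBS means of 0.58 CPM for Igkv4-91 and 2.15 CPM for Igkv17-127.

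Over all genes tested, 1444 (8.03%) were called at day 7 and 64 (0.356%) at day 28. Unadjusted p-values under 0.05 were nearer to each other in number, at 20.3 and 15.7% of genes. Both p-values were under 0.05 with opposite signs for 294 genes (1.64%) and with the same sign for 371 (2.06%), whether or not the difference was called. Across genes, the effect at day 28 had a Spearman correlation of 0.05 with the effect at day 7 (17977 genes, which are not independent replicates). The classes moved with single libraries, and so did the calls at day 28. These calls numbered 5 without β-glucan library 4 of day 28, 295 without β-glucan library 3 of that day, and 6 with day 28 fitted alone. Adjusted p-values given for day 28 alone share this limit. The transient genes numbered 253 (161 higher, 92 lower) without β-glucan library 2 of day 7, and 318 (168 and 150) without β-glucan library 3. The reversed genes numbered 138 without β-glucan library 1 of day 28, 154 without β-glucan library 2 of day 7 and 156 without β-glucan library 4 of day 28. Of the 158 reversed genes with a lower effect, the count was 93 without β-glucan library 2 of day 7 and 87 without β-glucan library 1 of day 28. The late genes numbered 14 without β-glucan library 2 of day 7, 126 without β-glucan library 3 of day 28 and 143 without PBS library 3 of day 28. They numbered 16 to 38 without any 1 of PBS libraries 1, 2 and 4 or β-glucan library 3 of day 7, or of PBS library 4 or β-glucan libraries 1, 2 and 4 of day 28.

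**Figure D1:**
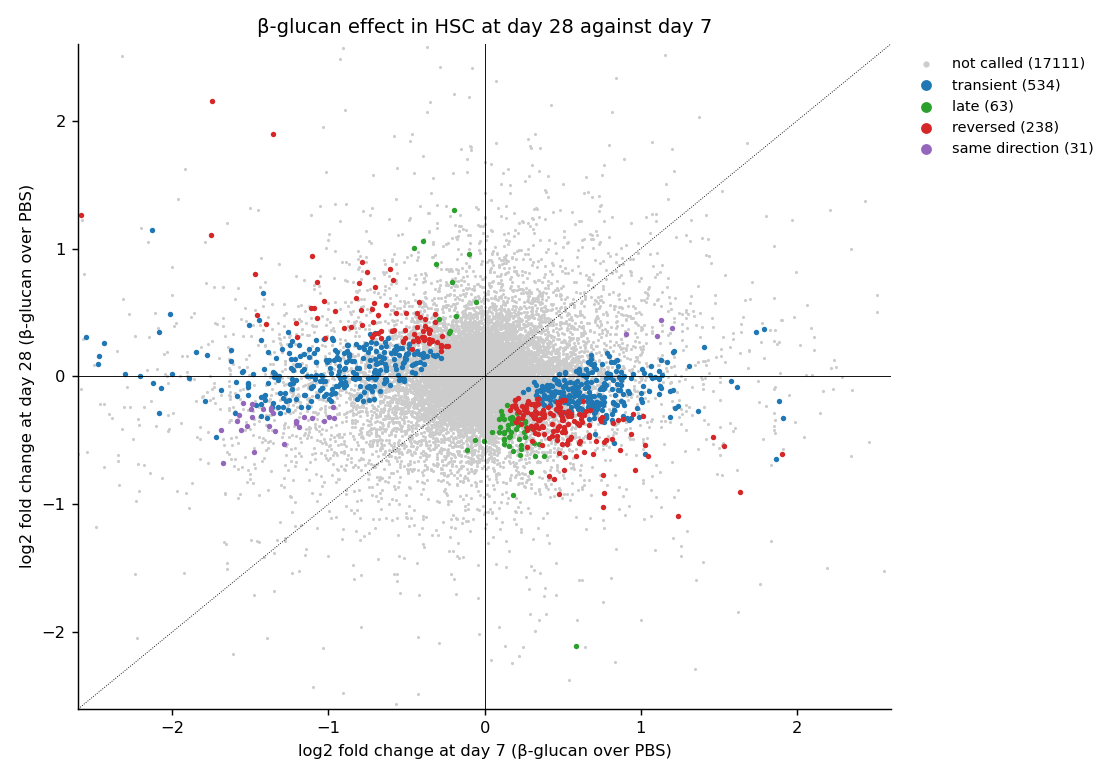
Log2 fold change of β-glucan over PBS in HSC at day 7 (x axis) and at day 28 (y axis), 1 point per gene, coloured by class, with the dotted line marking equal effects and 140 genes outside the axes not drawn. The 534 transient genes lie along the x axis, the 238 reversed genes in the upper left and lower right, and the 63 late genes near the y axis.

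Neutrophil genes had a lower effect at day 28 than at day 7. Of 20 genes of mature neutrophils, 14 passed the test of the difference with a lower effect and 0 with a higher one. Of the 14, 9 were reversed and 5 transient, and 2.58% of all genes tested had a lower effect. At day 7 alone 13 of the 20 were called, all higher, and at day 28 alone 0, with 10 lower at an unadjusted p under 0.05. Over all genes tested, 685 of 17977 were called higher at day 7. At day 28, 9.03% of all genes were lower at an unadjusted p under 0.05. The median effect of the list was 0.74 at day 7 and -0.30 at day 28 on the log2 scale, against 0.01 and -0.03 over all genes tested. The 9 reversed genes were Camp, Ltf, Lcn2, Chil3, Itgb2l, Cd177, Ly6g, Lyz2 and Olfm4, most of which encode proteins of the later neutrophil granules or the neutrophil surface. Ngp, S100a8, S100a9, Wfdc21 and Anxa1 were transient.

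Camp encodes the antimicrobial peptide cathelicidin (ENSMUSG00000038357, chr9:109847379-109849617, mm10). Its level at day 7 was 2535, 2581, 2950 and 2125 CPM in the PBS libraries and 3973, 5857 and 4770 CPM in the β-glucan libraries. At day 28 it was 4734, 5166, 4741 and 4911 CPM with PBS and 3572, 3389, 3710 and 3673 CPM with β-glucan. Every β-glucan library lay above every PBS library at day 7 and below every one at day 28. The effect was 0.93 ± 0.12 at day 7 and -0.45 ± 0.11 at day 28 (log2, ± SE), a difference of -1.38 ± 0.17 (edgeR adjusted p = 0.000213). The day 28 effect taken alone had an adjusted p of 0.082. Camp stayed called and reversed in all 15 fits that left out 1 library.

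Chil3, a chitinase-like protein of immature neutrophils and macrophages, went from 0.81 ± 0.15 to -0.49 ± 0.14. Reads of Chil3 and its close copy Chil4 may have been split by the counting. Ltf, the iron-binding protein lactoferrin of secondary granules, went from 0.75 ± 0.14 to -0.35 ± 0.13, and Itgb2l, an integrin subunit of neutrophils, from 0.74 ± 0.12 to -0.33 ± 0.11. For all 3 the β-glucan and PBS libraries did not overlap on either day, above at day 7 and below at day 28. Of all genes, 8.91% were separated above PBS and 9.10% below PBS at day 7, and 3.28% above and 5.35% below at day 28. The mature neutrophil list as a whole took 6.43 to 7.31% of counts with PBS and 9.05 to 13.1% with β-glucan at day 7. At day 28 the ranges were 8.10 to 8.94% and 7.05 to 8.09%.

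Genes of the earlier, primary granules and of granulocyte-monocyte priming had mostly positive effects on both days. The list of 26 had 14 members with a lower effect at day 28 and 0 with a higher one, where 2.58% of all genes had a lower one. Of the 14 members, 9 were transient, 3 reversed and 2 in the same direction. Its median was 0.75 at day 7 and 0.17 at day 28, and 17 of the 26 effects were positive at day 28. Ctsg, the primary granule protease cathepsin G, was measured at 114, 121, 114 and 102 CPM with PBS and 176, 299 and 253 CPM with β-glucan at day 7. By day 28 the levels were 213, 228, 233 and 232 CPM with PBS and 290, 282, 269 and 286 CPM with β-glucan. The β-glucan libraries lay above the PBS libraries on both days, and the effect was 1.10 ± 0.12 at day 7 and 0.32 ± 0.11 at day 28 (difference -0.79 ± 0.17, edgeR adjusted p = 0.0102).

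Ms4a3, a membrane protein of granulocyte-monocyte progenitors, had effects of 1.13 ± 0.12 and 0.44 ± 0.11. Fcnb, the ficolin of myeloid precursors, was transient, at 1.12 ± 0.14 and -0.08 ± 0.13. Prom1, the surface protein CD133, was also transient, at 1.22 ± 0.16 and 0.20 ± 0.15. Ly6c2, a surface marker of monocytes and their precursors with close copies in its family, was reversed, at 1.02 ± 0.13 and -0.31 ± 0.12, though its libraries overlapped at day 28. The smallest p-values among transient genes with a lower effect at day 28 included the short-chain fatty acid receptor Ffar2 (0.86 ± 0.09 and -0.11 ± 0.08) and the high affinity IgG receptor Fcgr1 (1.24 ± 0.16 and -0.23 ± 0.14). Of 18 monocyte and macrophage genes, 2 had a lower effect at day 28, Ccr2 and Fcgr1, both transient, against 2.58% of all genes.

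**Figure D2:**
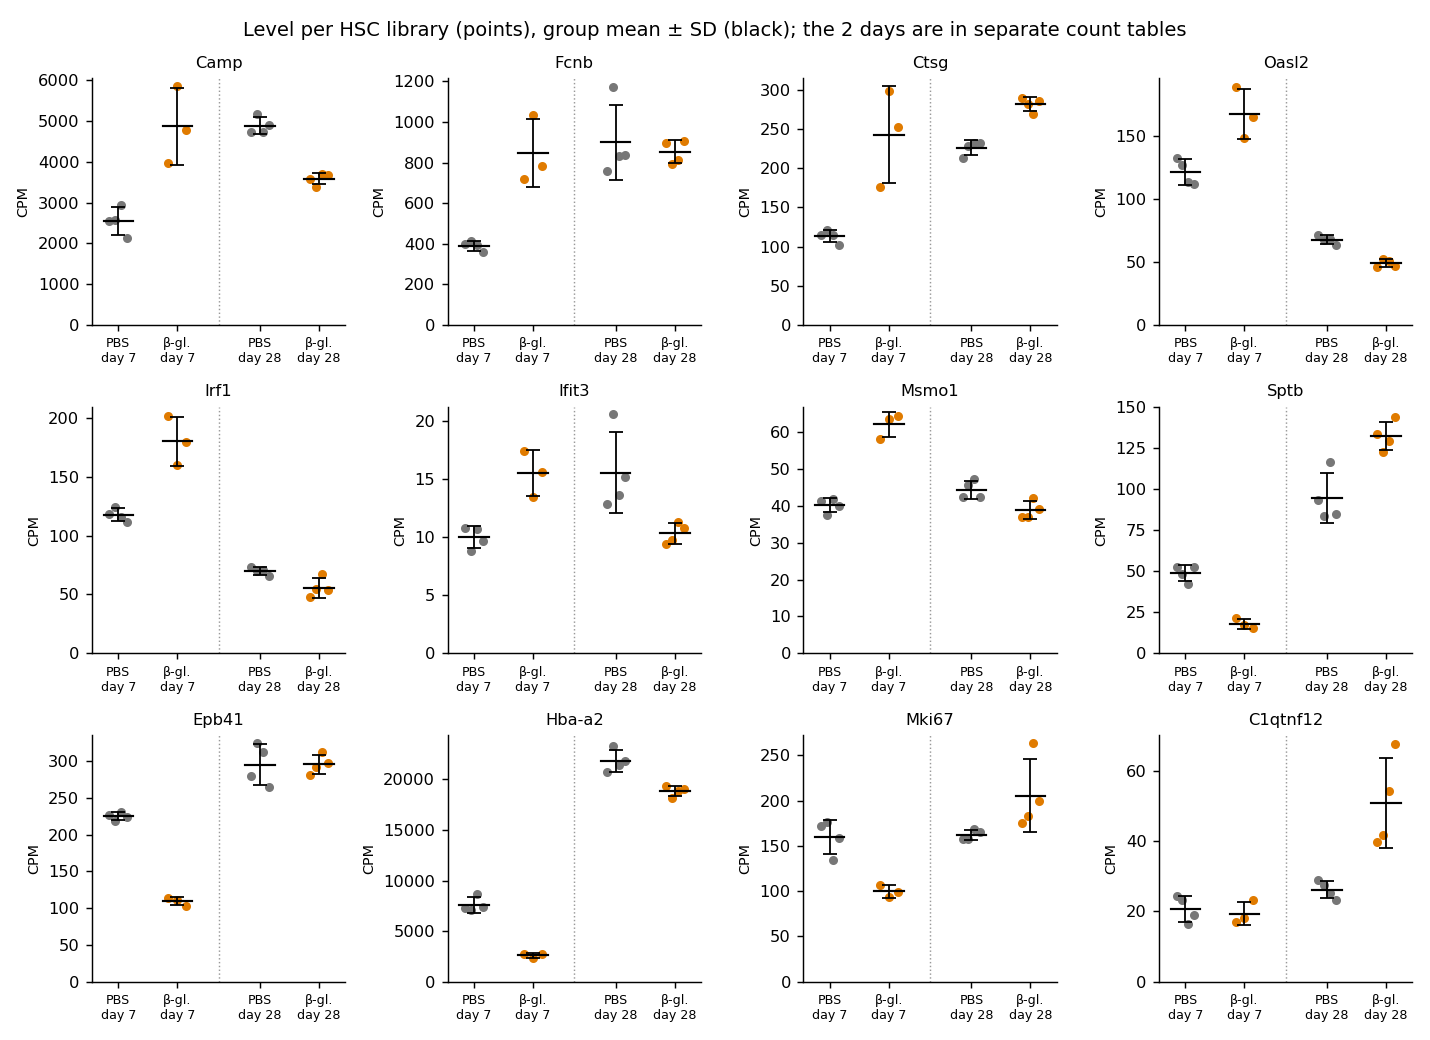
Level in CPM of 12 genes in each of the 15 HSC libraries (points), with group mean and SD in black, PBS in grey and β-glucan in orange. The days come from separate tables, so only the pair of groups within a day can be compared; Camp with β-glucan lies above PBS at day 7 and below it at day 28, whereas Ctsg with β-glucan lies above PBS on both days.

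Interferon response genes also had lower effects at day 28. The share of all genes tested with a lower effect was 2.58%, and with a higher one 2.24%. Of 31 genes of the interferon gamma response, 12 had a lower effect at day 28 and 0 a higher one, and 10 of the 12 were reversed. Of 34 genes of the type I interferon response, 14 had a lower effect and 1 a higher one (Rsad2), and 10 of the 14 were reversed. The medians were 0.35 at day 7 and -0.24 at day 28 for the first list, and 0.17 and -0.31 for the second. At day 28, 26 of 31 and 33 of 34 effects were negative, although only 0 and 2 members passed the adjusted threshold on that day.

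Oasl2, an interferon-induced protein of the oligoadenylate synthetase family (ENSMUSG00000029561, chr5:114896936-114912234, mm10), passed on both days. Its level at day 7 was 133, 127, 114 and 112 CPM with PBS and 188, 148 and 165 CPM with β-glucan. At day 28 it was 71.4, 67.6, 68.2 and 63.5 CPM with PBS and 45.6, 51.9, 51.1 and 47.0 CPM with β-glucan. The groups did not overlap on either day. It rose by 0.46 ± 0.09 at day 7 and fell by 0.47 ± 0.09 at day 28 (edgeR adjusted p = 0.00288 and 0.0359), and the difference was -0.93 ± 0.12 (adjusted p = 0.00059).

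H2-T22, a non-classical MHC class I gene, behaved alike, with a rise of 0.44 ± 0.09 and a fall of 0.43 ± 0.08 (edgeR adjusted p = 0.00327 and 0.0367). Of its exonic bases, 29.4% are shared with another gene, and the library preparation does not mark strand, so its counts are uncertain. Irf1, the transcription factor at the head of the interferon gamma response, was measured at 118, 125, 116 and 111 CPM with PBS and 202, 160 and 179 CPM with β-glucan at day 7. At day 28 the values were 73.7, 70.1, 70.7 and 65.8 CPM with PBS and 47.4, 54.3, 67.8 and 53.4 CPM with β-glucan. The groups were apart at day 7 and overlapped at day 28, where 1 β-glucan library reached the PBS range. The effects were 0.62 ± 0.10 and -0.33 ± 0.10, and the difference was -0.95 ± 0.14 (edgeR adjusted p = 0.00124).

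The other reversed interferon genes included the guanylate-binding proteins Gbp2 and Gbp3, which act against intracellular microbes. Gbp3 had effects of 0.46 ± 0.10 and -0.42 ± 0.09, and Gbp2 of 0.48 ± 0.14 and -0.60 ± 0.14. Psmb9, a subunit of the immunoproteasome that cuts peptides for MHC class I, had effects of 0.47 ± 0.07 and -0.22 ± 0.07. Ifit3, an antiviral RNA-binding complex member with a close copy in Ifit3b, had 0.63 ± 0.16 and -0.59 ± 0.15. Oas1a, an enzyme that makes the activator of RNase L and has close copies too, had 0.57 ± 0.12 and -0.35 ± 0.11. Zbp1, a sensor of left-handed nucleic acid, was transient (0.99 ± 0.16 and -0.32 ± 0.15), and its libraries were apart on both days.

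Promoters of these genes were searched for 2 short motifs on both strands, the interferon-stimulated response element (GAAA, any 2 bases, GAAA) and the gamma-activated site TTCNNNGAA, in the 250 bases before the RefSeq start (build GRCm38.p6). Stretches around the matches are shown for 6 genes whose effect was lower at day 28, because they carry the letters that the counts below refer to. They are examples picked from the genes with a match. No match was found for Oasl2, Psmb9 or Zbp1, for want of either the letters or a promoter sequence. Gbp2 had a response element that is not shown, as had Ebf1 and Emilin2, whose effect was higher at day 28. Capitals mark the match, and each stretch reads 5′ to 3′ on the strand of the gene.
Ifit3 (chr19:34583333-34583456, plus strand, 2 matches): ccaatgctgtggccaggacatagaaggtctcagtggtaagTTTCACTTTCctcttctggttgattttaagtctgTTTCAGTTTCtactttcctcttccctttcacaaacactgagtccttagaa
Oas1a (chr5:120907526-120907585, minus strand, 2 overlapping matches): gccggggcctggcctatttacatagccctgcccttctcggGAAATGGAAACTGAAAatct
Gbp3 (chr3:142559959-142560043, plus strand, 2 overlapping matches): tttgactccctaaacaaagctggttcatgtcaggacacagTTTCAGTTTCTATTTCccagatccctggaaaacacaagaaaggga
H2-T22 (chr17:36042884-36042973, minus strand, 1 match): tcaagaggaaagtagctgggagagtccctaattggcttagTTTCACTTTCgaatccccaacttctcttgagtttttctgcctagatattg
Cyp4v3 (chr8:45333243-45333332, minus strand, 1 match): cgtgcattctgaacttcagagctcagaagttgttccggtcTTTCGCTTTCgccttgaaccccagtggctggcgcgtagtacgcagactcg
Irf1 (chr11:53769884-53769972, plus strand, gamma-activated site, 1 match): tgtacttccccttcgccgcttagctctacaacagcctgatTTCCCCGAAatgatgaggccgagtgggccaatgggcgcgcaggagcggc

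A promoter sequence was found for 11216 of 17976 symbols tested. The interferon-stimulated response element stood in 3.46% of them, and in 17 of 118 promoters (14.4%) of reversed genes with a lower effect at day 28. Outside both interferon lists it stood in 11 of 104 such promoters (10.6%). It was found in 6 of 36 promoters (16.7%) of late genes with a lower effect, in 17 of 184 (9.24%) of transient genes with a lower effect and in 0 of 58 of reversed genes with a higher effect. Of the other genes with a higher effect, it was in 3 of 201 transient (1.49%), 1 of 9 late (11.1%) and 2 of 21 same-direction promoters (9.52%). The gamma-activated site stood in 7.29% of all tested promoters and in 21 of 118 (17.8%) of the reversed genes with a lower effect. Among transient and late genes with a lower effect it stood in 19 of 184 (10.3%) and 3 of 36 (8.33%). Among transient and reversed genes with a higher effect it stood in 13 of 201 (6.47%) and 4 of 58 (6.9%). The GATA motif AGATAA, known from erythroid genes, stood in 7.66% of all. Its share went no one way with the classes, at 25 of 201 (12.4%) in transient and 4 of 58 (6.9%) in reversed genes with a higher effect, and at 13 of 184 (7.07%) in transient, 13 of 118 (11%) in reversed and 6 of 36 (16.7%) in late genes with a lower effect. Over 32851 promoters of the whole RefSeq table the response element stood in 2.98%. These shares are descriptions, and a match is not evidence of binding.

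The list of 24 LT-HSC markers had 3 members with a lower effect at day 28, against 2.58% of all genes tested. All 3 are also known as interferon-induced genes, Ly6a, Ifitm3 and Ifitm1. Ly6a, which encodes the gating marker Sca-1, was measured at 105, 94.0, 99.6 and 115 CPM with PBS and 166, 118 and 146 CPM with β-glucan at day 7. The day 28 libraries had 48.1, 33.1, 43.3 and 43.9 CPM with PBS and 30.6, 27.1, 37.7 and 32.7 CPM with β-glucan. The groups were apart at day 7 and overlapped at day 28, and the effect went from 0.47 ± 0.13 to -0.40 ± 0.13 (difference -0.86 ± 0.18, edgeR adjusted p = 0.0105). Ifitm3 went from 0.51 ± 0.07 to -0.18 ± 0.07 with no overlap on either day. Ifitm1 was called in 12 of the 15 fits that left out 1 library, and not without PBS library 2 or β-glucan library 3 of day 7 or PBS library 4 of day 28. The effect at day 28 was negative for 23 of the 24 markers, 11 of them at an unadjusted p under 0.05 (9.03% of all genes tested), and positive for 15 of 24 at day 7.

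For other surface markers of HSC and MPP the difference between the days was not called. Kit, the stem cell factor receptor, fell on both days, with effects of -0.38 ± 0.11 and -0.49 ± 0.10 (edgeR adjusted p = 0.0395 and 0.0467), and the difference was -0.11 ± 0.15 (adjusted p = 0.741). Cd34, a sialomucin absent from the most primitive HSC, had effects of -0.39 ± 0.09 and -0.35 ± 0.09 and a difference of 0.04 ± 0.13. The differences were -0.78 ± 0.33 for Slamf1, -0.34 ± 0.16 for Cd48, 0.47 ± 0.33 for Flt3 and -0.55 ± 0.25 for Procr, with edgeR adjusted p-values between 0.197 and 0.47.

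Sterol and sugar metabolism genes also had lower effects at day 28. Over all genes tested, 2.58% had a lower effect. Of 23 genes of cholesterol synthesis and uptake, 8 had a lower effect and 0 a higher one, with 6 reversed and 2 transient, and the median went from 0.33 at day 7 to -0.14 at day 28. Msmo1, the sterol C4-methyl oxidase, was measured at 41.3, 37.5, 41.9 and 40.1 CPM with PBS and 58.3, 63.7 and 64.3 CPM with β-glucan at day 7. At day 28 it was measured at 42.3, 45.5, 47.3 and 42.5 CPM with PBS and 37.1, 37.0, 42.2 and 39.1 CPM with β-glucan. The groups were apart on both days, with effects of 0.63 ± 0.08 and -0.19 ± 0.08 (difference -0.82 ± 0.11, edgeR adjusted p = 0.000614).

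Hmgcs1, which makes the precursor of mevalonate, had effects of 0.41 ± 0.10 and -0.24 ± 0.09. Sc5d, a late enzyme of the pathway, had 0.50 ± 0.12 and -0.34 ± 0.12. Of 23 glycolysis genes, 10 had a lower effect and 1 a higher one, against 2.58 and 2.24% of all genes. Here 8 of the 11 were transient, such as the glycolytic enzymes Eno1 (0.47 ± 0.09 and -0.04 ± 0.08) and Pfkp (0.41 ± 0.08 and -0.10 ± 0.07), and the median at day 28 was -0.00. The one with a higher effect was Slc16a1, a lactate transporter (-0.71 ± 0.15 and 0.33 ± 0.13).

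Red cell genes fell at day 7 (23 of 24 erythroid genes called lower, against 4.22% of all genes) and had effects nearer 0 at day 28. Of 24 erythroid genes, 21 had a higher effect at day 28 and 0 a lower one, where 2.24% of all genes had a higher one. Of the 21, 13 were transient, 6 in the same direction and 2 reversed. The list's median effect was -1.22 at day 7 and -0.15 at day 28. Its share of counts at day 7 was 6.99 to 8.46% with PBS and 2.32 to 3.26% with β-glucan. At day 28 the ranges were 18.9 to 19.9% and 16.8 to 18.5%, again without overlap.

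The globins had negative effects on both days, smaller at day 28. Hba-a2 was measured at 7253, 7056, 8711 and 7352 CPM with PBS and 2720, 2362 and 2703 CPM with β-glucan at day 7. By day 28 the levels were 20721, 23307, 21440 and 21807 CPM with PBS and 19335, 18165, 18829 and 19066 CPM with β-glucan. The effect was -1.55 ± 0.11 and then -0.21 ± 0.09 (difference 1.34 ± 0.14, edgeR adjusted p = 6.72e-05), and the day 28 effect alone had an adjusted p of 0.279. Reads of Hba-a2 and its near-identical copy Hba-a1 may have been split by the counting. Hba-a2 kept its class in 9 of the 15 fits that left out 1 library, Hba-a1 in 3 and Hbb-bs in 10. The difference of each stayed called in all 15.

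Some genes of the red cell membrane skeleton had effects at or above 0 at day 28. Epb41, protein 4.1 of the membrane skeleton, was measured at 226, 218, 231 and 224 CPM with PBS and 114, 110 and 103 CPM with β-glucan at day 7. The day 28 libraries had 279, 324, 312 and 264 CPM with PBS and 281, 292, 312 and 297 CPM with β-glucan. The β-glucan values at day 28 lay within the PBS range, and the effect was -1.04 ± 0.08 and then 0.00 ± 0.07. Sptb, erythroid β-spectrin (ENSMUSG00000021061, chr12:76580488-76710547, mm10), was reversed. It was measured at 52.6, 48.4, 42.0 and 52.3 CPM with PBS and 21.2, 16.9 and 15.3 CPM with β-glucan at day 7. At day 28 the values were 93.3, 83.9, 117 and 84.6 CPM with PBS and 133, 123, 130 and 144 CPM with β-glucan. The groups were apart on both days in opposite directions. The effects were -1.45 ± 0.13 and 0.48 ± 0.11, and the difference of 1.94 ± 0.17 had, with that of Ighd, the smallest adjusted p of the genes named here (1.98e-05, edgeR). The day 28 effect alone had an adjusted p of 0.0666.

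Heme synthesis genes held both patterns. Of 8 genes, 5 had a higher effect at day 28 and 0 a lower one, where 2.24% of all genes had a higher one. All 8 were called lower at day 7, as were 4.22% of all genes. Alas2, the first and rate-limiting enzyme in red cell precursors, had effects of -1.35 ± 0.13 and -0.29 ± 0.12, with 15.5% of its exonic bases shared with another gene. Alad, which acts after Alas2, was transient at -0.74 ± 0.14 and 0.08 ± 0.13. The last steps were reversed, Cpox at -1.02 ± 0.14 and 0.30 ± 0.12, and Fech, which inserts the iron, at -0.96 ± 0.16 and 0.51 ± 0.14. At day 28 the libraries of both genes overlapped. The 80 reversed genes with a higher effect at day 28 rested on few libraries of that day. They numbered 133 without PBS library 2, 138 without PBS library 3, 45 without either PBS library 1 or 4, 51 without β-glucan library 1 and 47 without β-glucan library 4. Without the 2 libraries that lay farthest out there were 129.

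A list of red cell maturation shares Epb42 with the erythroid list and Fech with heme synthesis. Of its 20 genes, 11 had a higher effect at day 28 and 0 a lower one, against 2.24% higher over all genes. Their median went from -0.83 to -0.07. Among them, Trim58, an E3 ligase of late erythroblasts, went from -1.43 ± 0.19 to 0.29 ± 0.16. Ranbp10, a tubulin-binding protein that was named for its p-value and is on no list here, went from -1.24 ± 0.11 to 0.07 ± 0.09. Bcl2l1, which keeps erythroblasts alive and was the 1 gene called of 21 in myeloid cytokine receptor signalling, was transient at -0.97 ± 0.14 and 0.13 ± 0.12.

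B lineage genes fell at day 7, where mature B cell genes had the lowest median of the 27 lists. Of 15 mature B cell genes, 10 had a higher effect at day 28 and 0 a lower one, where 2.24% of all genes had a higher one. Of the 10, 5 were transient and 5 in the same direction. The median was -1.39 at day 7 and -0.27 at day 28, when all 15 effects were negative. Ighd, the IgD heavy chain gene of mature B cells (ENSMUSG00000104213, chr12:113406604-113416324, mm10), was measured at 24.5, 26.5, 27.9 and 24.3 CPM with PBS and 4.44, 6.35 and 7.65 CPM with β-glucan at day 7. At day 28 it was measured at 57.0, 60.0, 55.6 and 52.9 CPM with PBS and 46.8, 53.0, 59.8 and 51.7 CPM with β-glucan. The groups overlapped at day 28, and the effect was -2.07 ± 0.14 and then -0.09 ± 0.12 (difference 1.98 ± 0.18, edgeR adjusted p = 1.98e-05).

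Fcer2a, the low affinity IgE receptor of mature B cells, was likewise transient at -2.08 ± 0.17 and -0.29 ± 0.14. The antigen receptor component Cd79a had effects in the same direction, at -1.50 ± 0.10 and -0.25 ± 0.09 with no overlap on either day. Of 12 early B lineage genes, 5 had a higher effect at day 28 and 1 a lower one, against 2.24 and 2.58% of all genes. All 12 effects were negative at day 28 with a median of -0.42. Ebf1, the transcription factor that commits cells to the B lineage, was transient at -1.51 ± 0.18 and -0.05 ± 0.16. Vpreb3, a partner of the pre-B receptor, was in the same direction at -1.38 ± 0.13 and -0.39 ± 0.12. Dntt, the terminal transferase of early lymphoid cells, was late, at 0.23 ± 0.17 and -0.62 ± 0.16, but was called in 2 of the 15 fits that left out 1 library.

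**Figure D3:**
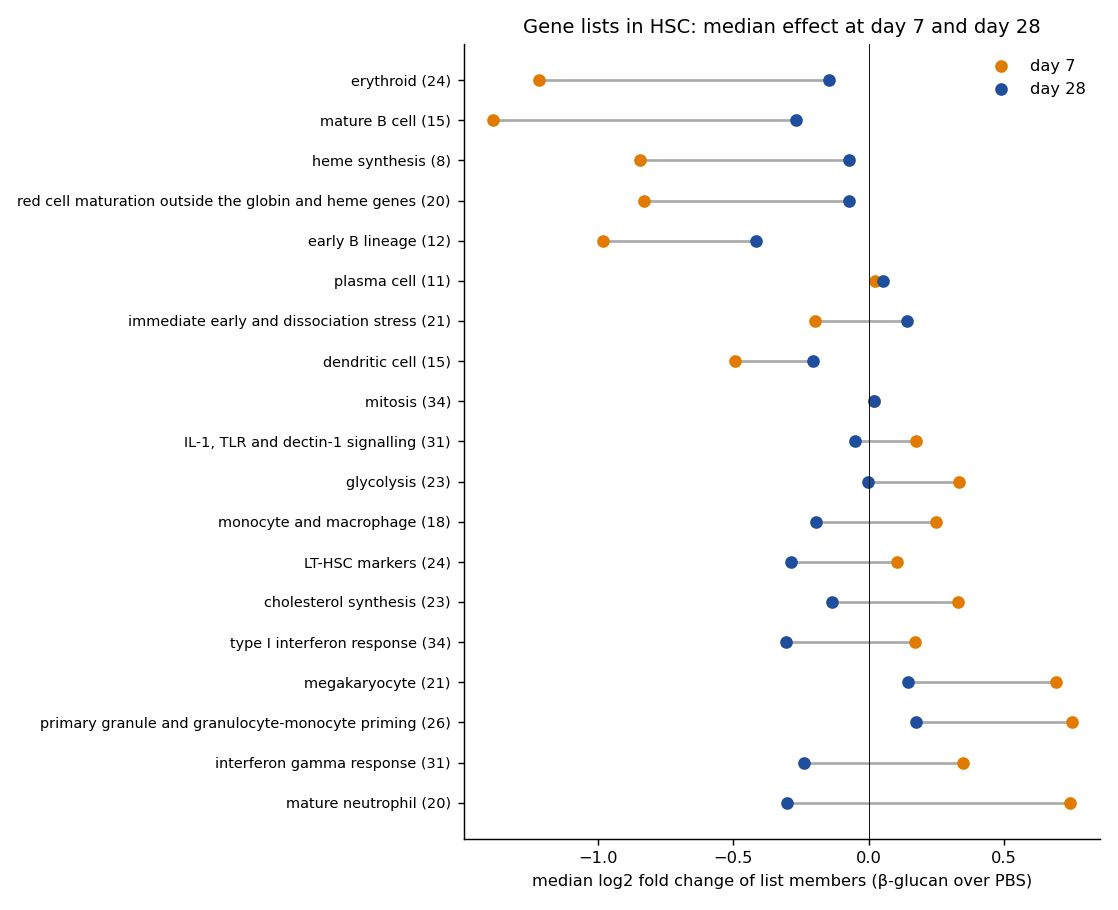
Median log2 fold change of β-glucan over PBS across the members of 19 gene lists (number of tested members in brackets), at day 7 in orange and day 28 in blue, ordered by the median difference. Mature neutrophil and interferon lists cross from above 0 to below 0, and erythroid and B cell lists move from far below 0 to nearer 0.

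Of 40 DNA replication genes, 2 had a higher effect at day 28 and 0 a lower one. These 2 were called in 9 and 3 of the 15 fits that left out 1 library. Of 34 mitosis genes, 5 had a higher effect (Mki67, Cenpe, Ccna2, Cenpf and Ube2c) and 0 a lower one, where 2.24% of all genes had a higher one. Mki67 and Cenpe were called in all 15 fits that left out 1 library, but Ccna2 in 6 and Ube2c in 5. The mitosis list as a whole went both ways, with 17 differences positive and 17 negative and a median of 0.01. Mki67, the proliferation marker Ki-67, was reversed. It was measured at 172, 176, 134 and 159 CPM with PBS and 107, 93.6 and 98.9 CPM with β-glucan at day 7, and at 157, 158, 169 and 166 CPM with PBS and 176, 183, 264 and 200 CPM with β-glucan at day 28. The groups were apart on both days, with effects of -0.69 ± 0.12 and 0.34 ± 0.11 (difference 1.03 ± 0.17, edgeR adjusted p = 0.00203). Cenpe, a kinetochore motor, had effects of -0.36 ± 0.09 and 0.26 ± 0.08. Both shared their signs on the 2 days with Sptb and Fech, and the part of dividing red cell precursors in them was not tested.

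Of 31 genes of IL-1, Toll-like receptor and dectin-1 signalling, 3 had a lower effect at day 28 and 0 a higher one. All 3 were transient, and 2.58% of all genes tested had a lower effect. Myd88, which couples IL-1 and Toll-like receptors to their kinases, had effects of 0.60 ± 0.10 and 0.03 ± 0.09. Irak4, the kinase that binds it, had 0.55 ± 0.11 and -0.15 ± 0.10, and Tlr4, the endotoxin receptor, 0.57 ± 0.13 and -0.16 ± 0.12. Myd88 and Tlr4 were each not called without β-glucan library 2 or without β-glucan library 3 of day 7, and Irak4 was called in all 15 fits that left out 1 library. Clec7a, which encodes dectin-1, had effects of 0.18 ± 0.17 and -0.44 ± 0.16 and a difference of -0.62 ± 0.23 (edgeR adjusted p = 0.136). Its exons share 32.1% of bases with another gene. The difference was -0.12 ± 0.25 for Il1r1, the IL-1 receptor, and -0.39 ± 0.15 for Csf2rb, the common β chain of the GM-CSF and IL-3 receptors, neither called.

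Of the 63 late genes, 51 had a lower effect at day 28 and 12 a higher one. This balance rested on single libraries, with 17 lower and 15 higher without β-glucan library 2 of day 28, 9 and 7 without β-glucan library 1 of that day, and 9 and 5 without β-glucan library 2 of day 7. Mndal, an interferon-inducible gene of the AIM2-like family that shares a cluster with Ifi203, was measured at 74.3, 66.8, 74.8 and 78.3 CPM with PBS and 87.0, 73.4 and 79.8 CPM with β-glucan at day 7. By day 28 the levels were 43.8, 41.9, 43.8 and 46.0 CPM with PBS and 30.1, 31.8, 36.05 and 31.5 CPM with β-glucan. The groups overlapped at day 7 and were apart at day 28, and the effect was 0.12 ± 0.09 and then -0.44 ± 0.08 (edgeR adjusted p = 0.47 and 0.0359). Cyp4v3, a fatty acid hydroxylase with 36.3% of exonic bases shared with another gene, had effects of 0.16 ± 0.10 and -0.54 ± 0.10. Commd10, a protein of endosomal sorting, had 0.18 ± 0.18 and -0.93 ± 0.17, although its PBS libraries at day 28 ran from 13.0 to 30.7 CPM. Hadh, an enzyme of fatty acid oxidation, had 0.09 ± 0.07 and -0.33 ± 0.07 and was called in 11 of the 15 fits that left out 1 library.

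Among late genes with a higher effect and a mean log2 CPM of at least 2, the smallest p-value was that of C1qtnf12, a secreted adipokine-like protein (ENSMUSG00000023571, chr4:155962318-155966629, mm10). It was measured at 24.4, 23.2, 16.5 and 19.1 CPM with PBS and 16.9, 18.1 and 23.3 CPM with β-glucan at day 7. At day 28 the values were 28.9, 27.6, 25.2 and 23.4 CPM with PBS and 39.9, 41.9, 54.3 and 67.6 CPM with β-glucan. The groups overlapped at day 7 and were apart at day 28, with effects of -0.10 ± 0.18 and 0.95 ± 0.16 (difference 1.06 ± 0.24, edgeR adjusted p = 0.0159). It was called in all 15 fits that left out 1 library.

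Other late genes of this direction were less firm. Ier2, an immediate early gene, had effects of -0.20 ± 0.28 and 1.30 ± 0.27 and was called in 8 of those 15 fits. Cxcl12, the niche chemokine that retains HSC in the marrow, had -0.05 ± 0.13 and 0.58 ± 0.12 and was called in 6. Cxcl12 was the only gene called among 20 stromal and endothelial genes, whose share of counts at day 28 was 0.0531 to 0.0731% with PBS and 0.0696 to 0.0811% with β-glucan. The part of stromal RNA in it was not tested. Mcpt8, a protease of basophils, was reversed in the direction of the red cell genes and passed on both days, at -0.42 ± 0.12 and 0.59 ± 0.11 (edgeR adjusted p = 0.0347 and 0.0359). It was the only gene called of 16 mast cell, basophil and eosinophil genes.

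**Figure D4:**
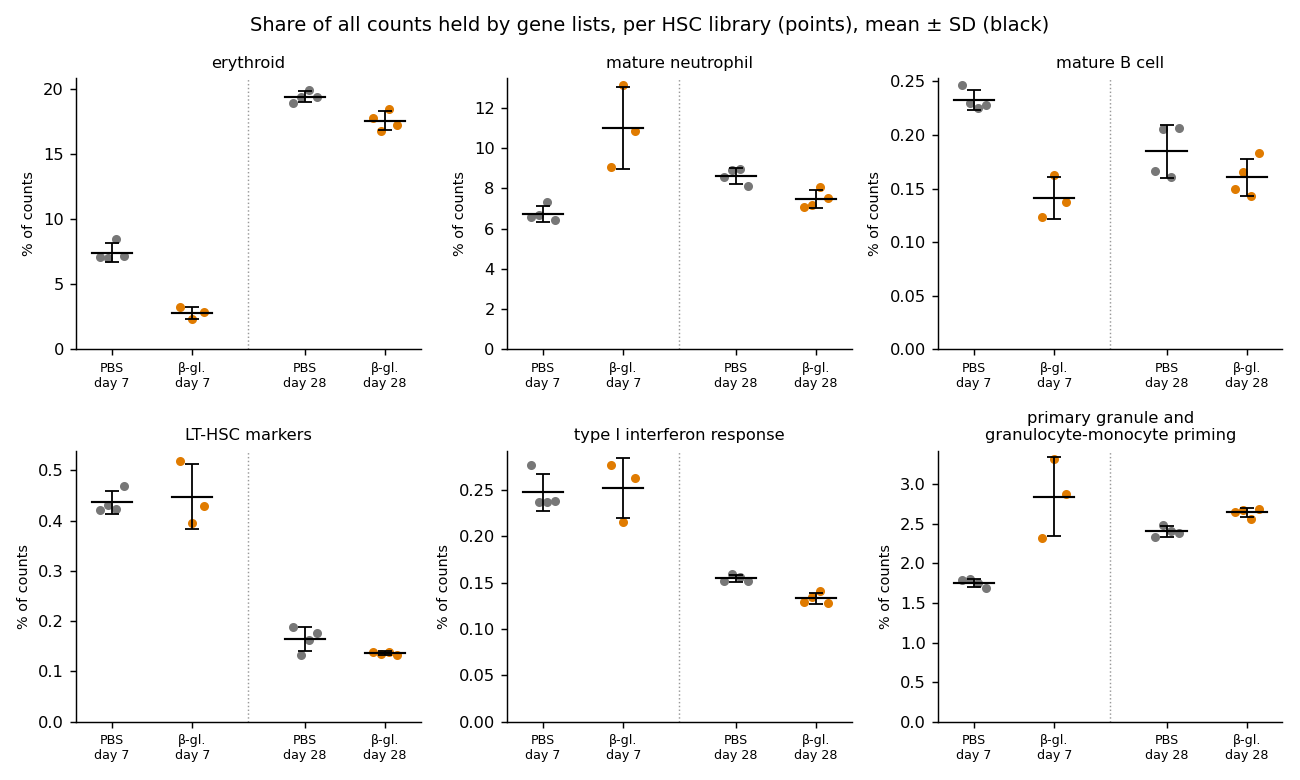
Share of all counts (percent) held by 6 gene lists in each of the 15 HSC libraries (points), with group mean and SD in black, PBS in grey and β-glucan in orange. With β-glucan the erythroid share is lower on both days, while the mature neutrophil share is higher at day 7 and lower at day 28; the days come from separate tables and are not compared in level.

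The classes were then read in libraries that had not been used to make them. MPP at day 28 were counted in the same table as HSC at day 28, and the labels do not say whether they came from the same mice. Across 15774 genes the β-glucan effects in HSC and MPP at day 28 had a Spearman correlation of 0.46. In MPP, 733 of 15828 genes were called (4.63%), 431 higher (2.72%) and 302 lower (1.91%). Of 156 reversed genes with a lower effect at day 28, 42 were lower in MPP and 0 higher, and 150 had a negative effect, with a median of -0.20 against -0.00 over all genes tested in both. The 42 included Ifit3 (-0.54 ± 0.09), Camp (-0.43 ± 0.09), Ltf (-0.42 ± 0.08), Itgb2l (-0.37 ± 0.07), Oasl2 (-0.25 ± 0.06) and H2-T22 (-0.21 ± 0.05).

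Of the lists, mature neutrophil had 11 of 20 and type I interferon 12 of 34 members lower in MPP, and neither had any higher. The interferon gamma list had 0 of 30 called in MPP in either direction, with a median of -0.09. By single genes, Gbp3 was at -0.04 ± 0.06 in MPP and Gbp2 at -0.20 ± 0.07 (edgeR adjusted p = 0.776 and 0.116). Cholesterol synthesis had 0 of 23 called. Of 76 reversed genes with a higher effect, 10 were higher in MPP and 1 lower. Sptb was at 0.07 ± 0.09 there and Mki67 at 0.00 ± 0.08, neither called, whereas Mcpt8 was at 0.21 ± 0.05 (edgeR adjusted p = 0.0326).

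All 12 late genes with a higher effect were positive in MPP, and 5 of them were called there, C1qtnf12 at 1.26 ± 0.24 (edgeR adjusted p = 0.0153), Ier2 at 1.48 ± 0.29, Cxcl12 at 0.46 ± 0.07, Hsph1 and the antibody segment Ighv5-9-1. Of 50 late genes with a lower effect, 8 were lower and 0 higher. Of 250 transient genes with a lower effect, 23 were lower and 4 higher, and of 282 with a higher effect, 13 were lower and 0 higher. Of 27 genes in the same direction with a higher effect at day 28, which include the globins and several B cell genes, 17 were lower in MPP and all 27 negative. Early B lineage genes were lower for 9 of 12, as with Ebf1 at -0.51 ± 0.06, which in HSC at day 28 was at -0.05 ± 0.16.

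HSC of the third table, taken to be the 5-FU libraries, had 7 of 15705 genes called (0.0446%), and 0 of the 848 class genes tested there were among them. At an unadjusted p under 0.05, 3.39% of all genes were lower and 4.15% higher. Of 274 transient genes with a higher effect at day 28, which include 13 of the 24 erythroid genes, 74 were lower and 6 higher after 5-FU, with a median of -0.16. Of 158 reversed genes with a lower effect, 3 were lower and 6 higher, with a median of 0.00. Hba-a2 was at -0.39 and Ubac1, a ubiquitin ligase partner that was transient in HSC, at -0.52, with edgeR adjusted p-values of 0.237 and 0.182.

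**Figure D5:**
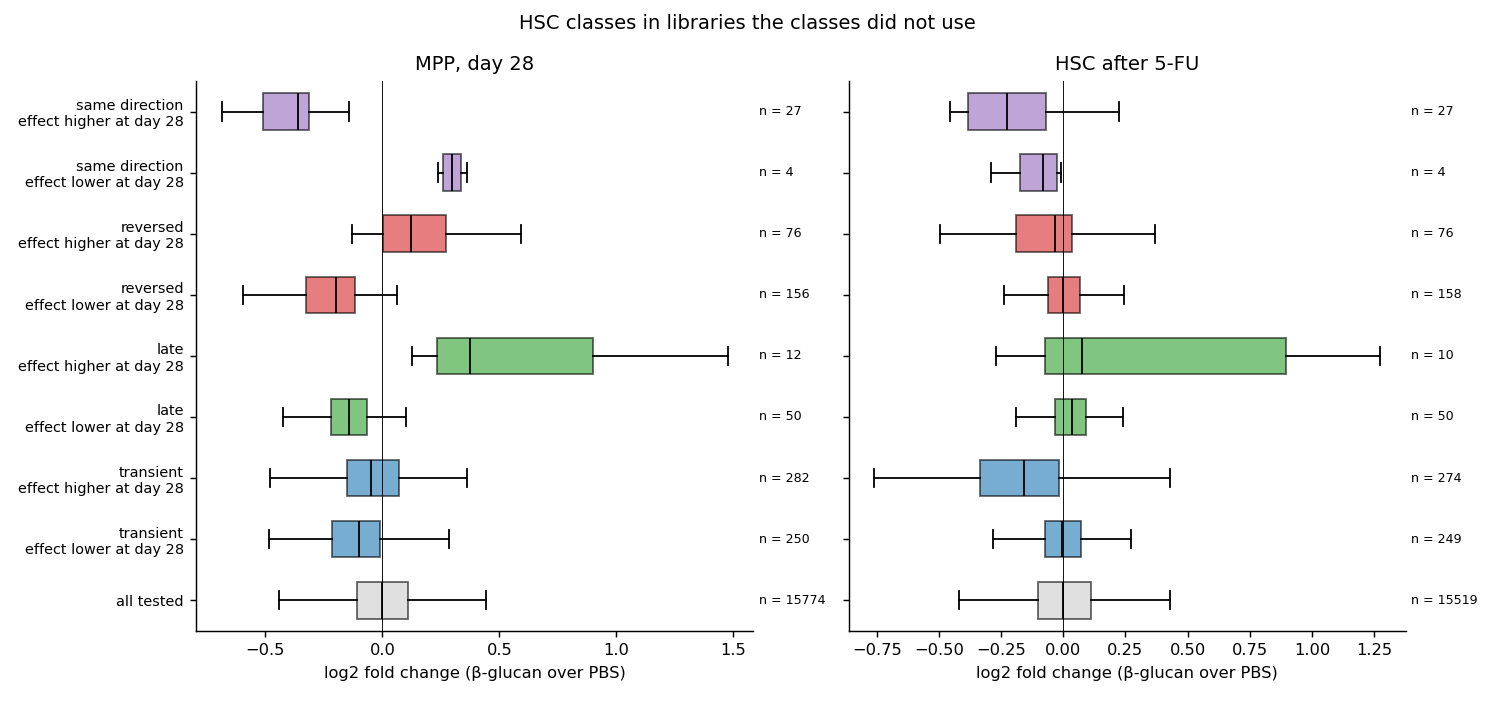
Log2 fold change of β-glucan over PBS in MPP at day 28 (left) and in HSC after 5-FU (right) for the genes of each HSC class and direction and for all genes tested (boxes show quartiles and median, whiskers reach 1.5 times the box length at most, n is the number of genes). In MPP the reversed and late genes lie on the side of their HSC effect at day 28, and after 5-FU the transient genes with a higher effect at day 28 lie below 0.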

How the data were processed

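The authors deposited 3 tables of raw gene counts. The submitters' processing notes name bcl2fastq 1.8.4, featureCounts (without a version) and the build mm10. The sources used here do not name the aligner. Per the labels' protocols, RNA of sorted cells was amplified with a SMARTer Ultra kit, and such libraries do not mark strand, so overlapping genes cannot be told apart. Symbols came from GENCODE M21 (45143 of 45706 identifiers). No column of per-library values was left unused, and the gene length column was not used.

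The 15 HSC libraries were fitted together as 4 groups in edgeR 4.0.16 (R 4.3.3), after filterByExpr (minimum count 10) and TMM scaling, with the quasi-likelihood test of the day 28 effect minus the day 7 effect. P-values were adjusted by Benjamini-Hochberg over all genes, with a threshold of 0.05. Standard errors are the absolute log2 fold change divided by the square root of F. CPM use TMM-scaled totals. Separate fits gave the MPP and 5-FU effects, and fits of each day alone called 1102 genes at day 7 and 6 at day 28. The biological coefficient of variation was 0.176 in the 4-group fit.

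Genes were named by rule: in each class and direction up to 6 of smallest p with mean log2 CPM of at least 2 and a standard name, up to 4 members of each list with 3 or more called members or a median difference of at least 0.3 either way, and 11 genes chosen by name (Cd34, Cd48, Clec7a, Csf2rb, Flt3, Il1r1, Kit, Ly6a, Mki67, Procr, Slamf1). The checks on named genes also took up to 4 members of the lists that did not meet this rule, and Cxcl12, Mcpt8, Bcl2l1 and Creld2 are reported from such lists. These, further members and MPP genes are examples picked after their values were seen. Some genes the rule picked are not reported here, although list counts include them. The comparison, the 27 lists (551 genes tested) and the rules were chosen with earlier results of these data known. Of the lists not described in the report, MHC class II had 1 gene called higher and 1 lower of 11, dendritic cell 3 higher of 15, T and NK cell 1 higher of 21, plasma cell 2 higher of 11, megakaryocyte 2 lower of 21, MPP and lymphoid-primed progenitor 2 lower of 12, and immediate early genes 1 higher and 1 lower of 21.

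Tested on simulated data (17673 genes), the fit recovered 26.9% of differences of 1.5-fold, 73.1% of 2-fold and 97.0% of 4-fold. Of 140 calls 9 were false, and 123 of 131 true calls fell in the right class. Only transient and late changes were simulated, and none in genes of low level. The recovery of reversed and same-direction genes, and of genes of low level, was therefore not tested. Alternatives were DESeq2 1.42.0 (size factors and Wald test), limma 3.58.1 voom, other filters and scalings, all 8 groups, a replicate block, leaving out each library, and other rules for the classes.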

Additional observations from a re-analysis of the deposited data

Results flagged for a closer look

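In 866 genes the β-glucan effect differed between day 28 and day 7 by the test of the difference itself, as described above.

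In 31 of 501 groups of 4 libraries checked (6.19%, where chance gives about 5%), 1 library lay apart from the others, with a gap to its nearest neighbour, as a share of the group's whole range, above 0.829. The groups checked were the levels of the named genes and the shares of counts of the lists. In the PBS libraries of day 7 this share was 0.905 for Fcgr1, 0.862 for Smox, 0.896 for Hba-a1, 0.935 for Cd34, 0.898 for Cd79b, 0.851 for Ebf1, 0.836 for H2-DMb2 and 0.969 for Fos. For shares of counts in the same libraries it was 0.873 for the erythroid list, 0.980 for the type I interferon response list and 0.911 for the immediate early and dissociation stress list. In the PBS libraries of day 28 this share was 0.846 for Ffar2, 0.896 for Smox, 0.866 for Dpep1, 0.913 for Clec7a, 0.912 for Cd68, 0.866 for Selp, 0.924 for Slc16a1 and 0.942 for Csf3r. For shares of counts in the same libraries it was 0.900 for the monocyte and macrophage list, 0.918 for the immediate early and dissociation stress list and 0.843 for the red cell maturation outside the globin and heme genes list. In the β-glucan libraries of day 28 this share was 0.946 for Tuba8, 0.851 for Ms4a3, 0.861 for Kit, 0.948 for Hmgcs1 and 0.867 for Pole. For shares of counts in the same libraries it was 0.893 for the early B lineage list, 0.844 for the monocyte and macrophage list, 0.934 for the cholesterol synthesis list and 0.845 for the red cell maturation outside the globin and heme genes list.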

How the results depend on the processing

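All 866 genes kept the sign of their difference, where tested, with DESeq2 size factors, TMM within each table, no filter, the stricter filter, the DESeq2 Wald test, voom, all 8 groups in 1 fit and the replicate block. Counts moved more. Genes called numbered 1432 (663 higher, 769 lower) with the DESeq2 Wald test, 1611 (710, 901) with voom quality weights and 1461 (706, 755) with all 8 groups. Transient, late and reversed genes were 844, 227 and 319 with the Wald test, 762, 275 and 509 with voom, and 851, 183 and 390 with 8 groups. Late genes were 128 (75 lower, 53 higher) without a filter and 155 at a CPM of at least 5, and 116 (74 and 42) with the spread taken within each table, an alternative added after seeing the data, as was leaving out the 2 farthest libraries (65 late and 258 reversed). Requiring an adjusted p under 0.05 on each day left 667 transient, 17 late and 5 reversed genes, with 176 unplaced, and a difference of at least 1 on the log2 scale left 205, 10 and 91, by construction. With the third table's HSC columns in place of day 28, which are taken to be 5-FU libraries, 386 genes were called (167 higher, 219 lower), with 304 transient, 11 late and 44 reversed, and the differences of Ier2 (-0.005) and Emilin2 (-0.059) changed sign. The cause was not tested for the other shifts.

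Leaving out 1 library gave 445 to 1051 genes called (247 to 492 higher, 196 to 601 lower), 253 to 656 transient, 14 to 143 late and 138 to 332 reversed. The lowest counts came without β-glucan library 2 of day 7, except for higher genes (β-glucan library 3 of day 7) and reversed genes (β-glucan library 1 of day 28). Same-numbered libraries did not deviate together (correlations -0.04 to 0.03 at day 7 and -0.05 to 0.12 at day 28), so the numbers are not taken as pairs. The replicate block called 711 genes (360 higher, 351 lower), with 412 transient, 27 late and 235 reversed. Among named genes that were called, 2355 values under the alternatives kept the call, 268 lost it and 2 changed sign. The depth of the libraries and their number leave most differences of 1.5-fold uncalled in simulated data.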

Other observations

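Antibody variable segments gave the largest single differences, outside the rule for named genes and picked after their values were seen. Igkv4-91 had effects of -1.79 ± 0.53 at day 7 and 4.03 ± 0.29 at day 28 in HSC and of -2.58 in MPP, and Igkv17-127 had -1.68 ± 0.48 and 3.36 ± 0.34 in HSC and 1.56 in MPP. Ighv5-9-1 was at -1.44 ± 0.79 and 2.78 ± 0.55 in HSC and 2.83 in MPP. At day 7 all of these levels were low, so their day 7 effects rest on few counts. With PBS and β-glucan, the day 7 means were 0.58 and 0.16 CPM for Igkv4-91 and 2.15 and 0.67 CPM for Igkv17-127. For Ighv5-9-1 they were 0.82 and 0.30 CPM.

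The unfolded protein response, which raises chaperones in the endoplasmic reticulum, had 0 of 24 genes called for the difference by edgeR. Its effect was positive for 19 of 24 genes at day 7 and 20 of 24 at day 28. The medians were 0.19 and 0.17, against 0.01 and -0.03 over all genes tested. In MPP 8 of 24 were higher and 0 lower, where 2.72% of all genes were higher. Creld2, a secreted chaperone, was at 0.23 ± 0.18 at day 7 and 0.99 ± 0.16 at day 28 in HSC and at 1.10 in MPP, and its difference between the days had an edgeR adjusted p of 0.076. The erythroid transcription factor Klf1 was reversed in HSC, at -0.81 ± 0.20 and 0.73 ± 0.18, and was at 1.59 in MPP (edgeR adjusted p = 0.00639).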
